A study of Homo sapiens with 4 samples.

Results

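The genes described here encode histone modifiers and chromatin remodellers. They were grouped as lysine methyltransferases and demethylases, deacylases, acetyltransferases, bromodomain readers, remodellers and the enzymes of DNA methylation. They were chosen by symbol among the protein-coding genes of a RefSeq table, which gave 129 of 19866 genes. The symbols were KMT, KDM, SETD, NSD, EHMT, PRDM, HDAC, SIRT, KAT, BRD, CHD, SMARC, ARID, DNMT and TET names. Earlier results of these data were known when the group was chosen. The mark is lactylation of lysine 5 of histone H4 (H4K5la), mapped by sequencing of immunoprecipitated chromatin from the SH-SY5Y line, an established human neuroblastoma culture. Wild-type (WT) cells and cells labelled DNAJC12KO, a knockout of the co-chaperone gene DNAJC12, had 1 immunoprecipitated library and 1 input library each, and the data used were the authors' peak list of each genotype. How the knockout was made, and whether it is 1 clone, is not given in the sources used here. With 1 library per genotype there is no replicate check, so each difference between the lists is a difference between 2 libraries and no test between genotypes was made.

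Histone-modifying enzymes write, erase or bind marks on histone tails, and remodellers use ATP to slide or evict nucleosomes. Lactylation shares its lysines with acetylation, and enzymes first known for acetylation, among them EP300 and the deacetylases HDAC1, HDAC2 and HDAC3, also act on lactyl groups in cells. In the neuronal lineage the subunits of the BAF remodelling complex are exchanged as progenitors become neurons, and DNMT3A and TET3 set and remove DNA methylation there.

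Members are called marked where at least 1 bp of a peak fell in the gene record or in the 3 kb on either side. Each peak has a fold, the authors' enrichment over local background on a linear scale, and a -log10 q from the peak caller, both averaged over the broad peak. The depth of the libraries is unknown, because the lists hold no read counts. A gene without a peak is one below the authors' threshold, not one shown to lack the mark.

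Peaks stood at 23 of the 129 members, 17.8% (exact binomial 95% interval 11.7 to 25.5%), against 11.8% of all protein-coding genes. In the WT list 16 members carried 19 peaks, 12.4% of members (interval 7.26 to 19.4%) beside 6.49% of all protein-coding genes. In the DNAJC12KO list 18 members carried 38 peaks, 14% (interval 8.48 to 21.2%) beside 8.26%. The 11 members with a peak in both lists were PRDM16, CHD5, DNMT3A, HDAC4, SMARCD3, BRD3, EHMT1, SMARCD2, ARID3A, KDM4B and SMARCA4, 8.53% of members (interval 4.33 to 14.7%) beside 2.93% of all genes. The WT list alone marked KDM2B, SIRT7, SIRT6, CHD6 and HDAC6, 3.88% of members beside 3.56% of all genes. The DNAJC12KO list alone marked TET3, HDAC11, PRDM11, KMT2D, KMT2B, PRDM15 and BRD1, 5.43% beside 5.33%. The share of members was further from that of all genes for peaks in both lists than for peaks in 1 list alone. Intervals cover counting error only and treat genes as independent. They make no allowance for the members having been chosen with earlier results of these data known.

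A few stretches of sequence under or beside these peaks can be read from RefSeq (GRCh38.p14). They are the only bases of the members' peaks that the reference holds, with the listed start closest to any member's peak. The first is the 300-base window at the start of the gene LOC105378605, chr1:3213157-3213456 on the minus strand, which lies wholly inside the WT peak in PRDM16. The next 2 are miRNA hairpins that the end of a WT peak crosses: MIR671 beside SMARCD3 (chr7:151238421-151238538, plus strand) and MIR7107 in KDM2B (chr12:121444273-121444352, minus strand). The last is the start window of SMARCD2 that lies nearest to a peak, chr17:63838679-63838978 on the minus strand, with its start 630 bp from the WT peak and 932 bp from the DNAJC12KO peak. In the start windows capitals mark CG dinucleotides, and in the hairpins capitals mark the bases inside the peak.
LOC105378605: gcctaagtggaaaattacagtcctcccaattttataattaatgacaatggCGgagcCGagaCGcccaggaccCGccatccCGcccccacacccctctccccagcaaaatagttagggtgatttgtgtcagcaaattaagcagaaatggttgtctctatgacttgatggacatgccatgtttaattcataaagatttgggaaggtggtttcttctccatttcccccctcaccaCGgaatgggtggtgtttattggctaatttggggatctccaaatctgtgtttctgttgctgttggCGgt
MIR671: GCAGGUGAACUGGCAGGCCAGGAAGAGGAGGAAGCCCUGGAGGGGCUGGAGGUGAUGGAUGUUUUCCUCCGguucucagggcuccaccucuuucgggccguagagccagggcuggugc
MIR7107: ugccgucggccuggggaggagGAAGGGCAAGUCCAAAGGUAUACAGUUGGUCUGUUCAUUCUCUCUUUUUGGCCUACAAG
SMARCD2: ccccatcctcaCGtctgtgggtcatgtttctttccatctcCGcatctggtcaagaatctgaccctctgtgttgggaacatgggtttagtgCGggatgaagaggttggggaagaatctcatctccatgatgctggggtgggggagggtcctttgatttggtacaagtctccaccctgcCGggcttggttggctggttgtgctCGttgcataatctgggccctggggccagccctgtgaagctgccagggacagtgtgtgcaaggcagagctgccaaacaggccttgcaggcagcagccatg
The peak beside SMARCD3 holds bases 1 to 71 of the 118 of MIR671, and the peak in KDM2B holds bases 22 to 80 of the 80 of MIR7107. The window inside the PRDM16 peak has 7 CG dinucleotides and a GC content of 47.0%, and the SMARCD2 window has 5 and 57.0%. Of the 35116 start windows in the table, 63.2% hold at least 7 CG dinucleotides and 70.4% at least 5, with a median of 14, so both windows lie below the median.

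Most of the members' peaks lay inside the gene record and away from listed starts, as did those of all protein-coding genes. Of the 57 peaks at members, 54 overlapped the record itself. In the WT list 16 of 19 did, 84.2% beside 86.8% over all protein-coding genes, and in the DNAJC12KO list all 38, beside 87.8%. A transcription start was listed for 108 members, 18 of them among the 23 with a peak. PRDM16, CHD5, SIRT7, ARID3A and CHD6 had none, so their peaks are not in the start counts below. Some of those peaks lay within 3 kb of a record end. They were at SIRT7 (WT, 1208 bp), ARID3A (WT, 2295 bp), CHD5 (DNAJC12KO, 1398 bp) and PRDM16 (DNAJC12KO, 1115 bp). Which end holds the start was not listed. Among peaks at members with a listed start, 2 of 14 in the WT list lay within 3 kb of one, at SMARCD2 and DNMT3A, 14.3% beside 18.3% of such peaks at all protein-coding genes. In the DNAJC12KO list 4 of 29 did, at SMARCD2, SMARCD3, SMARCA4 and TET3, 13.8% beside 15.0%. Counted by gene, that is 1.85% of the 108 members in the WT list beside 1.56% of all protein-coding genes with a listed start, and 3.70% beside 1.69% in the DNAJC12KO list. The distance to the nearest listed start had a median of 20.7 kb for WT and 25.0 kb for DNAJC12KO peaks. Over all protein-coding genes with a peak and a listed start it was 13.1 and 17.1 kb. No peak overlapped a listed start window of its own member.

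**Figure D1:**
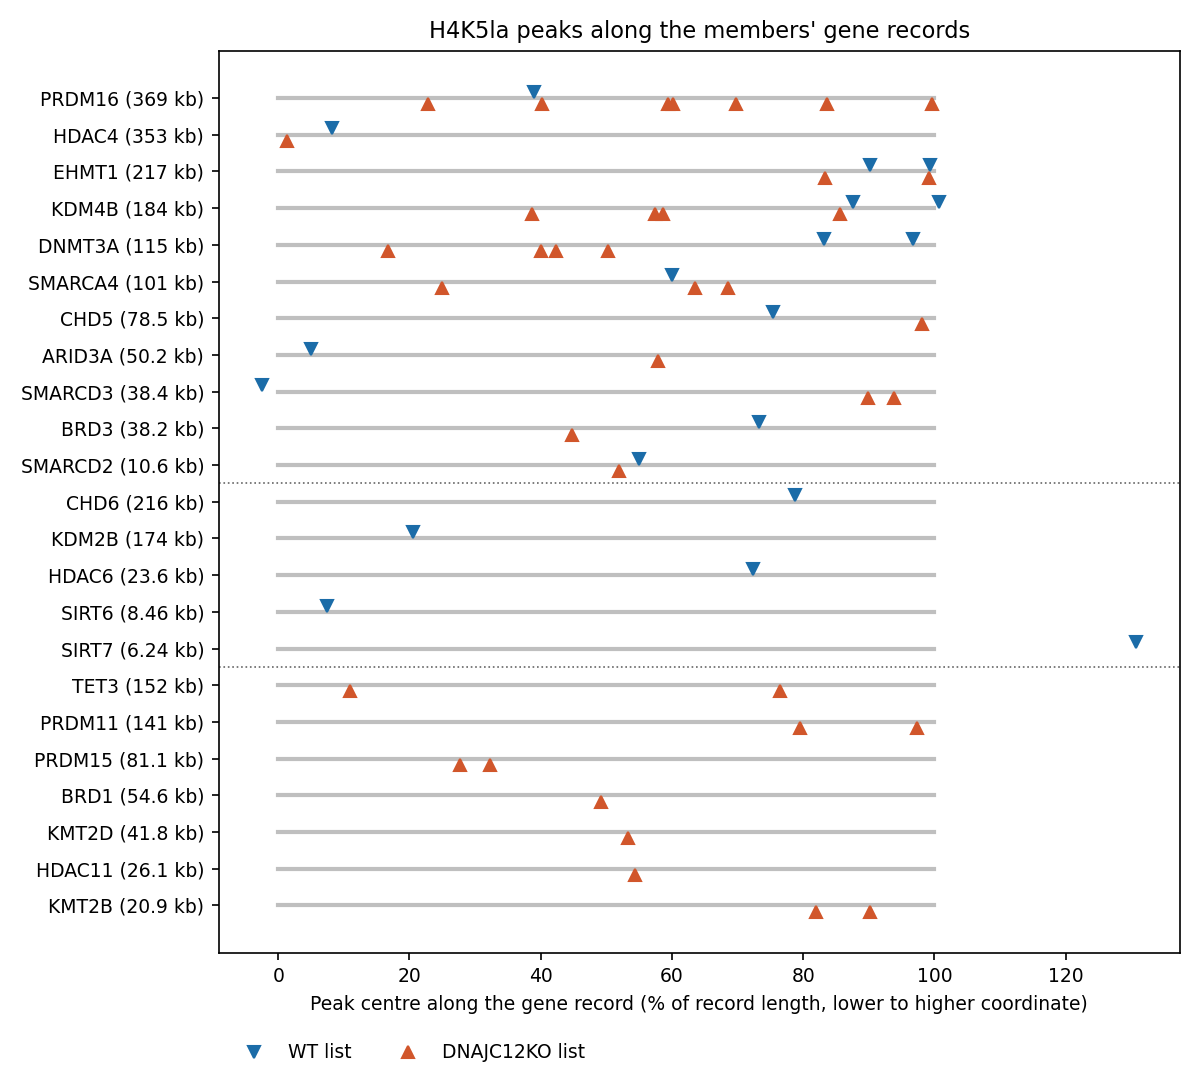
Centre of each peak along the gene record of the 23 members with a peak, in percent of record length from the lower to the higher coordinate, with WT peaks as downward and DNAJC12KO peaks as upward triangles. Dotted lines divide the 11 members with a peak in both lists (top) from those in the WT list alone (5) and in the DNAJC12KO list alone (7). Peaks of the 2 lists share a place only in EHMT1 and SMARCD2.

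Among the 11 members marked in both lists, the lists seldom marked the same place. Peaks of the 2 lists overlapped in 2 of them, EHMT1 and SMARCD2. The shortest distance between a WT and a DNAJC12KO peak had a median of 10.5 kb over the 11 genes, was at most 10 kb in 5 of them, and reached 37.2 kb in DNMT3A. Of all WT peaks at members 10.5% (interval 1.30 to 33.1%) overlapped a DNAJC12KO peak, beside 8.88% of the whole WT list. Of the DNAJC12KO peaks at members 5.26% (interval 0.644 to 17.7%) overlapped a WT peak, beside 6.31% of that whole list. The lists had no overlapping peaks in 9 of the 11 genes, 81.8% (interval 48.2 to 97.7%), beside 77.5% of the 582 protein-coding genes with a peak in both lists, so separate places were the rule for genes in general.

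Of the 37 lysine methyltransferase genes, 2 carried a peak in the WT and 6 in the DNAJC12KO list. That is 5.41% and 16.2%, beside 6.49% and 8.26% of all protein-coding genes. The encoded proteins add methyl groups to histone lysines or, for most PRDM proteins, belong to a related family of zinc-finger regulators. PRDM16, a regulator of brown fat, blood stem cells and neural progenitors, had the most peaks of any member. It spans 369 kb on chromosome 1 (3069203 to 3438621), with 1 WT peak at 3212961 to 3213510 (fold 3.78, -log10 q 1.32) and 7 DNAJC12KO peaks. The strongest of the 7, at 3377858 to 3378164, had a fold of 5.14 and a -log10 q of 3.18. By fold it ranked 2, and by -log10 q 11, of the 2743 peaks of that list. The other 6 lay at 3152948 to 3153607 (fold 3.83), 3217584 to 3218031 (3.97), 3288092 to 3288781 (3.84), 3291049 to 3291514 (3.61), 3326830 to 3327208 (3.61) and 3437135 to 3437506 (3.49). Those at 3288092 and 3291049 are also within 3 kb of LOC124903828. The DNAJC12KO peaks were spread from 22.8% to 99.6% of the record, and the nearest of them was 4.07 kb from the WT peak. The surroundings of PRDM16 were also rich in peaks. The DNAJC12KO list had 18.6 peaks per Mb in its window and 25.2 per Mb in the flanks from 3 to 500 kb, and the WT list had 2.66 and 17.1.

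EHMT1, which encodes the GLP methyltransferase of lysine 9 of histone H3, held the larger of the 2 shared places. Its record spans 217 kb on chromosome 9 (137619005 to 137836127, plus strand). The WT peak at 137834381 to 137834688 (fold 3.63, -log10 q 1.32) shared 214 bp, 137834381 to 137834594, with the DNAJC12KO peak at 137834083 to 137834594 (fold 3.72, -log10 q 1.38). That place lay at 99.3% and 99.2% of the record, close to the 3′ end of the gene. A second WT peak at 137814606 to 137815041 (fold 3.79, -log10 q 1.60) and a second DNAJC12KO peak at 137799576 to 137800010 (fold 3.47, -log10 q 1.26) lay 14.6 kb apart. All 4 EHMT1 peaks were in the last part of the gene, from 83.3% onward.

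The remaining methyltransferase members with peaks appeared in the DNAJC12KO list alone. KMT2B and KMT2D belong to the MLL family that methylates lysine 4 of histone H3. KMT2B (chromosome 19, 35718003 to 35738878, plus strand) had peaks at 35734807 to 35735385 (fold 3.94, -log10 q 1.70) and 35736615 to 35737011 (fold 3.62, -log10 q 1.29). Both lay towards its 3′ end, at 81.9% and 90.1% of the record, and the latter is also within 3 kb of IGFLR1. KMT2D (chromosome 12, minus strand) was marked once, 19.4 kb from its start, at 49041121 to 49041420 (fold 3.99, -log10 q 1.81). PRDM11 and PRDM15 completed the set.
PRDM11 (chromosome 11, plus strand) carried peaks at 45206056 to 45206427 (fold 3.39, -log10 q 1.16) and 45230992 to 45231667 (fold 3.28, -log10 q 1.17). PRDM15 (chromosome 21, minus strand), a regulator of early embryonic signalling, carried peaks at 41820527 to 41820819 (fold 3.77, -log10 q 1.57) and 41824055 to 41824672 (fold 3.62, -log10 q 1.40). The nearest WT peak was 45.7 kb from the record of KMT2B, 244 kb from PRDM11, 499 kb from KMT2D and 655 kb from PRDM15. None of the 9 SETD and 3 NSD genes carried a peak in either list, so the group's calls came from 2 of 8 KMT genes, 3 of 15 PRDM genes and 1 of 2 EHMT genes. These groups are small, and 11.8% of all protein-coding genes had a peak in either list.

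Of the 20 lysine demethylase genes, 2 carried a peak in either list, close to the 11.8% of all protein-coding genes. KDM4B encodes an eraser of methylation at lysine 9 of histone H3 that is induced by hypoxia. It spans 184 kb on chromosome 19 (4969113 to 5153598, plus strand), with 2 WT and 4 DNAJC12KO peaks. The WT peaks were at 5130594 to 5130872 (fold 3.82, -log10 q 1.32), inside the record, and at 5154594 to 5155044 (fold 3.82, -log10 q 1.32), 996 bp past its 3′ end. The DNAJC12KO peaks were at 5040319 to 5040706 (fold 4.20, -log10 q 1.92), 5074768 to 5075302 (3.67, 1.43), 5077152 to 5077444 (3.50, 1.29) and 5126762 to 5127138 (3.22, 1.14). The DNAJC12KO peaks ran through the gene body from 38.7% to 85.6% of the record, while the WT peaks lay at and beyond 87.6%. The closest pair of the 2 lists was 3.46 kb apart. KDM2B, a component of a variant Polycomb complex that binds unmethylated CpG islands, had 1 peak in the WT list alone, on chromosome 12 at 121443869 to 121444331 (fold 3.98, -log10 q 1.66). The nearest DNAJC12KO peak was 159 kb from its record.

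Deacylases, which remove acetyl and other acyl groups from lysines, had 5 of 18 genes with a peak, 4 in the WT and 2 in the DNAJC12KO list. For WT that is 22.2% (interval 6.41 to 47.6%) beside 6.49% of all protein-coding genes. For DNAJC12KO it is 11.1% (interval 1.38 to 34.7%) beside 8.26%. HDAC4, a class IIa deacetylase that shuttles between cytoplasm and nucleus in neurons and muscle, was the one in both. It spans 353 kb on chromosome 2 (239048168 to 239401649, minus strand). Its WT peak at 239077022 to 239077300 had a fold of 3.70 (-log10 q 1.35), and its DNAJC12KO peak at 239052678 to 239053050 a fold of 4.07 (-log10 q 1.88). Both sat near the 3′ end, 24.0 kb apart.
The sirtuins with peaks, SIRT6 and SIRT7, are nuclear NAD-dependent deacylases, of telomeric chromatin and of the nucleolus respectively. Both are short records and both were in the WT list alone. On chromosome 19, the peak of SIRT6 (4174326 to 4175138, fold 4.11, -log10 q 1.60) lay at the 3′ end of the gene and within 3 kb of CREB3L3. On chromosome 17, the peak of SIRT7 (81919384 to 81920802, fold 4.25, -log10 q 1.99) lay 1.21 kb outside the SIRT7 record and within 3 kb of MAFG. It is 1419 bp wide, the widest WT peak at a member, and cannot be assigned to SIRT7 rather than MAFG.
The nearest DNAJC12KO peaks were 17.2 kb from SIRT6 and 12.8 kb from SIRT7, so absence in that list did not mean an empty neighbourhood. HDAC6, a cytoplasmic deacetylase of tubulin, had 1 WT peak on chromosome X at 48818296 to 48818651 (fold 3.91, -log10 q 1.81). HDAC11, the single class IV deacetylase, was marked once in the DNAJC12KO list, on chromosome 3 between 13494216 and 13494756 (fold 3.69, -log10 q 1.36). HDAC1, HDAC2, HDAC3 and SIRT1 to SIRT3 had no peak in either list.

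No acetyltransferase of the KAT group carried a peak: 0 of 8 genes in each list (exact interval 0 to 36.9%). The interval includes the shares of all protein-coding genes, 6.49% (WT) and 8.26% (DNAJC12KO). The bromodomain genes encode readers of acetylated lysine, and 2 of 7 had peaks in either list, beside 11.8% of all protein-coding genes. BRD3, a BET-family reader of acetylated chromatin, had 1 peak per list. The WT peak on chromosome 9 at 134058022 to 134058576 had a fold of 3.79 (-log10 q 1.49), and the DNAJC12KO peak at 134047253 to 134047547 a fold of 4.68 (-log10 q 2.53). They lay 10.5 kb apart in a record of 38.2 kb, and the DNAJC12KO peak ranked 27 by fold in its list. BRD1, a subunit of an acetyltransferase complex, was marked once in the DNAJC12KO list, on chromosome 22 between 49799808 and 49800406 (fold 3.91, -log10 q 1.88).

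**Figure D2:**
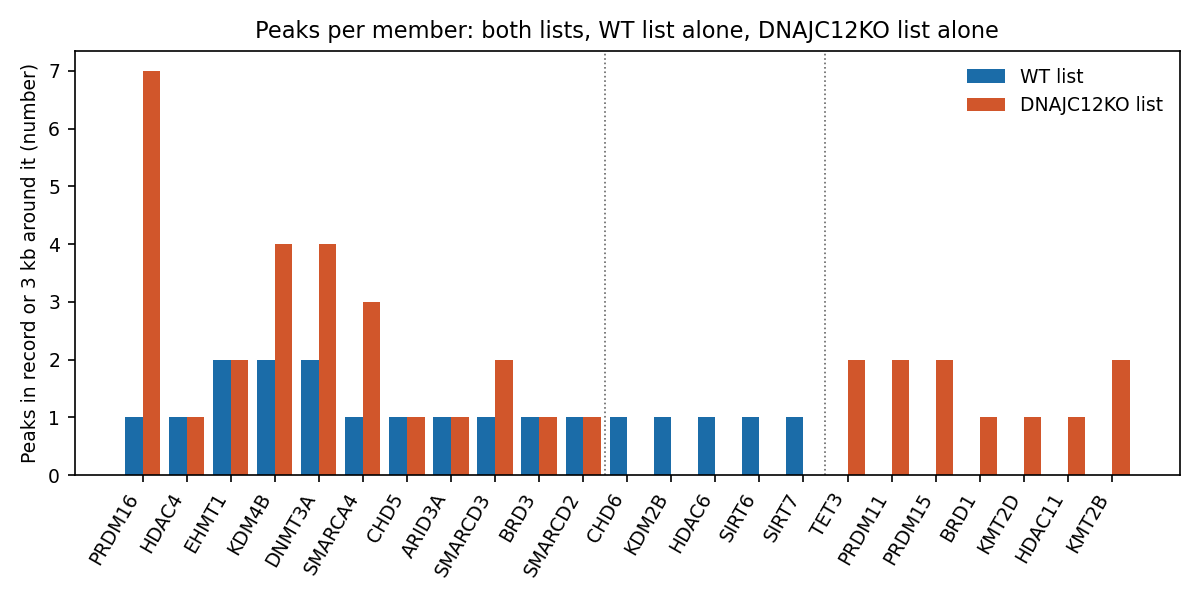
Number of peaks in the gene record or 3 kb around it for each of the 23 members with a peak, WT list and DNAJC12KO list side by side. Among the 11 members in both lists, 5 have more DNAJC12KO than WT peaks, 6 have equal numbers and 0 have fewer. The same count was not made for the 582 protein-coding genes in both lists. The DNAJC12KO list is also the longer, with 2743 peaks against 1937.

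The remodeller family, grouped by CHD, SMARC and ARID symbols and not by activity, had the most members in both lists. Of its 32 genes 6 carried a peak in the WT and 5 in the DNAJC12KO list, and those 5 were all among the 6. The shares are 18.8% and 15.6%, beside 6.49% and 8.26% of all protein-coding genes. Of the 13 SMARC genes, 3 were marked in either list, all of them BAF subunits, beside 11.8% of all protein-coding genes.
SMARCA4 encodes BRG1, an ATPase of the BAF complex, and its WT peak was the strongest at any member in that list. It lay on chromosome 19 at 11021657 to 11021946 (fold 4.87, -log10 q 2.83) and ranked 26 by fold among 1937 WT peaks. The DNAJC12KO list had peaks at 10985779 to 10986683 (fold 3.67, -log10 q 1.36), 11024372 to 11026155 (fold 4.08, -log10 q 1.81) and 11030124 to 11030641 (fold 3.80, -log10 q 1.58). The first of these was 1.66 kb from an internal start of the gene, and the second, 1784 bp wide, was the widest peak at a member and stood 2.43 kb from the WT peak. A fold of at least 4 was found at 5 members in WT cells and 6 in DNAJC12KO cells. That is 3.88% and 4.65% of members, beside 2.39% and 1.95% of all protein-coding genes. SMARCA4 was the only member reaching it in both, 0.775% beside 0.463%.

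SMARCD2 and SMARCD3 encode the BAF60B and BAF60C subunits. SMARCD2, the shortest record marked in both lists at 10.6 kb (chromosome 17, 63832081 to 63842685, minus strand), had overlapping peaks. The WT peak at 63837711 to 63838098 had a fold of 4.25 (-log10 q 2.12), against which the DNAJC12KO peak at 63837377 to 63837796 had 3.37 (-log10 q 1.28). They shared 86 bp, 63837711 to 63837796, near the middle of the record and just downstream of the internal start whose window is printed above. SMARCD3 (chromosome 7, 151238780 to 151277149, minus strand) was marked at opposite ends. Its WT peak at 151237226 to 151238491 (fold 3.75, -log10 q 1.73) lay 289 bp beyond the 3′ end, across the start of the MIR671 hairpin and within 3 kb of CHPF2. Its DNAJC12KO peaks at 151273100 to 151273392 (fold 3.60, -log10 q 1.68) and 151274075 to 151275533 (fold 3.36, -log10 q 1.35) lay 3.34 and 1.20 kb from listed starts.

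The other genes of the remodeller family with peaks were CHD5, CHD6 and ARID3A. CHD5, a neuronal remodeller and tumour suppressor in the chromosome 1p region often deleted in neuroblastoma, had a WT peak at 6160799 to 6161170 (fold 3.88, -log10 q 1.59). Its DNAJC12KO peak lay 17.5 kb away at 6178631 to 6178923 (fold 3.87, -log10 q 1.66), 1398 bp inside the higher end of the record. ARID3A, a DNA-binding protein of the ARID family on chromosome 19, had a WT peak at 928027 to 928485 (fold 3.79, -log10 q 1.31) and a DNAJC12KO peak at 954235 to 955264 (fold 4.24, -log10 q 2.00), 25.8 kb apart. CHD6 (chromosome 20) had 1 WT peak at 41572339 to 41572617 (fold 4.68, -log10 q 2.24), ranked 58 by fold, and the nearest DNAJC12KO peak was 37.9 kb from its record. No other ARID gene of the 10, and neither ARID1A nor ARID1B of the BAF complex, had a peak.

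**Figure D3:**
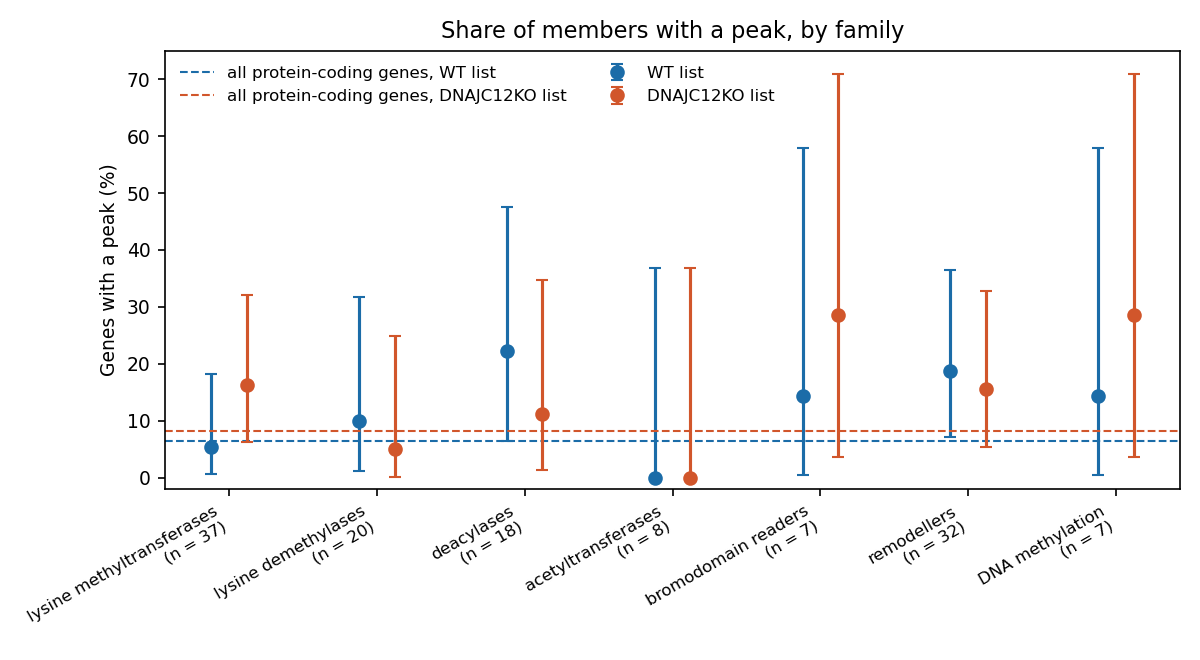
Percentage of genes with a peak in each family, with exact binomial 95% intervals, for the WT and DNAJC12KO lists. Dashed lines give the share of all protein-coding genes (6.49% WT, 8.26% DNAJC12KO). It lies inside the interval of every family but the remodellers in the WT list (7.21 to 36.4%). That count includes SMARCD3, whose WT peak lies outside its record, and the intervals are not adjusted for the number of families.

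DNA methylation genes had 2 of 7 members with a peak in either list, beside 11.8% of all protein-coding genes. DNMT3A, the de novo DNA methyltransferase of neurons, spans 115 kb on chromosome 2 (25227874 to 25342590, minus strand) and had 2 WT and 4 DNAJC12KO peaks. The WT peaks were at 25323006 to 25323508 (fold 3.34, -log10 q 1.14) and 25338686 to 25338964 (fold 3.78, -log10 q 1.56), the latter 2.96 kb from a listed start. The DNAJC12KO peaks were at 25246809 to 25247413 (fold 3.12, -log10 q 1.13), 25273660 to 25274122 (3.38, 1.39), 25276092 to 25276848 (3.38, 1.27) and 25285220 to 25285812 (3.57, 1.47). The 2 lists marked separate parts of the gene: the WT peaks lay in its first part, and the DNAJC12KO peaks in the middle and towards the 3′ end, at least 37.2 kb from them. TET3, which oxidises methylcytosine, had 2 DNAJC12KO peaks on chromosome 2, at 73999999 to 74000487 (fold 3.62, -log10 q 1.35, an internal start lying 2.21 kb away) and at 74099530 to 74099979 (fold 3.46, -log10 q 1.25). The nearest WT peak was 3087 kb from TET3. DNMT1, DNMT3B, DNMT3L, TET1 and TET2 had none.

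By median, peaks at members were of ordinary strength for their lists. The 19 WT peaks had a median fold of 3.82 (range 3.34 to 4.87), equal to the 3.82 of the whole list, and a median -log10 q of 1.59 beside 1.47. The 38 DNAJC12KO peaks had a median fold of 3.64 (range 3.12 to 5.14) beside 3.69, and a median -log10 q of 1.39 beside 1.48. In each list 3 peaks at members had a -log10 q of 2 or more. That is 15.8% of the WT peaks at members beside 10.4% of the whole list, and 7.89% beside 9.99% for DNAJC12KO. Counted by gene it is 2.33% of members in each list, beside 0.941% (WT) and 1.09% (DNAJC12KO) of all genes. No member had such a peak in both lists, beside 0.101% of all genes. The members were SMARCA4, CHD6 and SMARCD2 in the WT list, and PRDM16, BRD3 and ARID3A in the DNAJC12KO list. Over all 19 WT and 38 DNAJC12KO peaks at members the median widths were 436 and 464 bp, beside 453 and 460 bp for the whole lists. In each list 4 of them had the shortest width of the list, 279 bp in the WT list (21.1% beside 12.7% of the whole list) and 293 bp in the DNAJC12KO list (10.5% beside 12.8%). The 2 member peaks of highest fold in each list were at or near these widths. They were SMARCA4 (290 bp) and CHD6 (279 bp) for WT, and PRDM16 (307 bp) and BRD3 (295 bp) for DNAJC12KO. Whether fold goes with width was not tested.

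**Figure D4:**
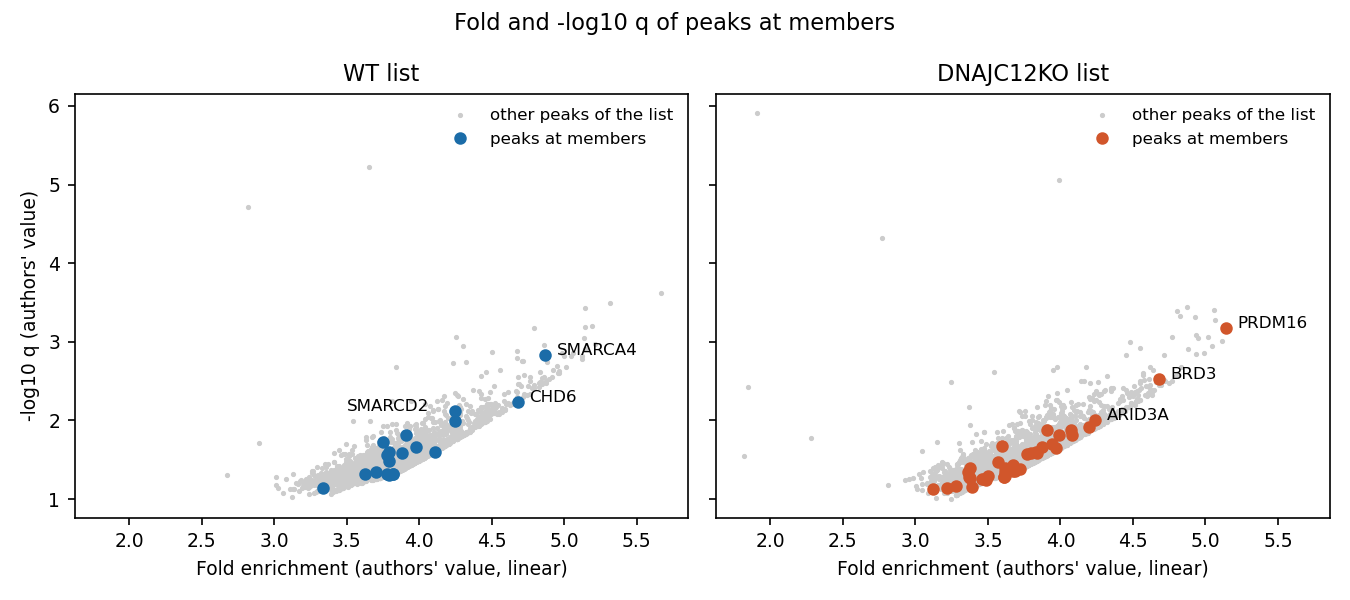
Fold enrichment (horizontal) and -log10 q (vertical), both the authors' values, of the peaks at members (coloured) over the other peaks of each list (grey), with the 3 strongest members named. The member peaks span folds of 3.34 to 4.87 in the WT list and 3.12 to 5.14 in the DNAJC12KO list. The highest of them, at PRDM16, ranked 2 by fold in the DNAJC12KO list. The 1 DNAJC12KO peak above it, with a fold of 35.00, is beyond the axis.

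The DNAJC12KO list carried more peaks at the members, 38 against 19, a ratio of 2.00 beside 1.42 for the whole lists and 1.33 for peaks at any protein-coding gene. Without PRDM16 the counts were 31 and 18, a ratio of 1.72. With the DNAJC12KO list cut to the length of the WT list by -log10 q, 22 DNAJC12KO peaks at 15 members remained, 11.6% of members beside 6.32% of all genes. At least 2 peaks stood at 3 members in the WT list (EHMT1, KDM4B and DNMT3A), 2.33% of members beside 1.62% of all genes. In the DNAJC12KO list 10 members had at least 2, 7.75% (interval 3.78 to 13.8%) beside 2.18%. Members have longer records than most genes, and these shares were not split by record length. Since depth is unknown and the DNAJC12KO list is longer, the numbers compare these 2 lists and not the amount of the mark.

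The members were longer than most genes. The median record was 55.4 kb, against 24.5 kb for all protein-coding genes, and 78.5 kb for the 23 members with a peak. Among records of 100 kb or longer, 8 of 41 members had a peak in each list, 19.5% (interval 8.82 to 34.9%), beside 7.72% (WT) and 9.66% (DNAJC12KO) of all genes of that length. Among records of 30 to 100 kb the shares were 8.70% beside 6.84% for WT and 15.2% beside 9.67% for DNAJC12KO peaks. Under 30 kb they were 9.52% beside 5.95%, and 7.14% beside 7.14%. The shares with a peak in both lists, or with at least 2 peaks in a list, were not split by length.
Per length, the windows of the members (12.7 Mb in all) held 1.5 WT and 3.0 DNAJC12KO peaks per Mb, and the windows of all protein-coding genes 1.24 and 1.65. The sequence from 3 to 500 kb around the members held 2.45 and 3.15 per Mb. A large part of these flank peaks lay around SIRT7, 52 of 295 in the WT list and 50 of 380 in the DNAJC12KO list. Without SIRT7, chosen after its values were seen, the flanks held 2.03 and 2.76 per Mb, so for WT peaks they stayed above the members (1.42) and for DNAJC12KO peaks they fell below them (3.0). Without HDAC9, a long member with no peak, the DNAJC12KO flanks (3.18) were also below the members (3.24). Leaving out any of the other 127 members kept the flanks above the members in both lists. Counted per gene, 48.1% of members had no WT peak and 42.6% no DNAJC12KO peak in these flanks, beside 59.0% and 50% of all protein-coding genes. The median was 1 flank peak per member in each list, beside 0 (WT) and 1 (DNAJC12KO) over all protein-coding genes. Whether the members' shares follow from where they lie was not tested. By chromosome, 5 of the 9 members on chromosome 19 had a peak in either list (interval 21.2 to 86.3%), beside 15.2% of all protein-coding genes there. Chromosome 19 had the most marked members of any chromosome, so singling it out follows the counts and its interval is not a test. On chromosomes 4 to 6 it was 0 of 24 members (interval 0 to 14.2%), beside 5.26% of all genes, a share that the interval includes. Chromosomes 8, 10, 14, 15, 16 and Y hold 4, 4, 3, 2, 7 and 1 members, none with a peak, and on chromosome 3 it was 1 of 5. The shares of all genes on these chromosomes were not computed, and so few members do not set them apart from the 11.8% of all protein-coding genes.

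**Figure D5:**
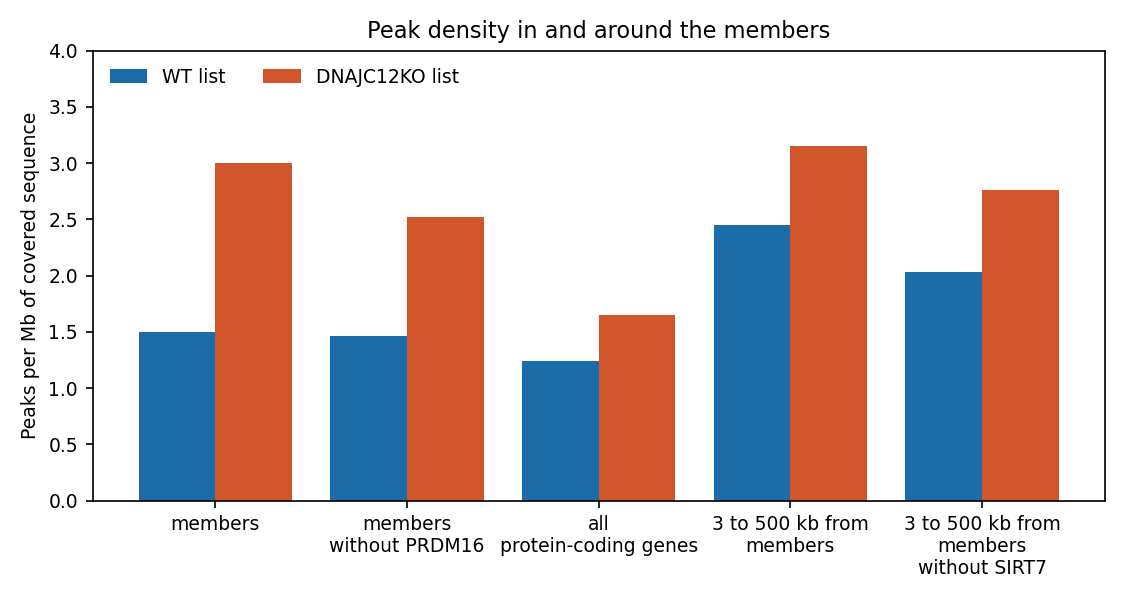
Peaks per Mb of covered sequence in the WT and DNAJC12KO lists, for the windows of the 129 members, the same without PRDM16, the windows of all protein-coding genes, and the sequence from 3 to 500 kb around the members, with and without SIRT7. The members (1.5 and 3.0) stand above all protein-coding genes (1.24 and 1.65), and the flanks hold 2.45 and 3.15 with SIRT7 and 2.03 and 2.76 without it.

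Just outside the 3 kb limit, 5 of the 106 members without a peak had one within 10 kb, 4.72% (interval 1.55 to 10.7%) beside 3.91% of all protein-coding genes without a peak. They were NSD2 (DNAJC12KO, 4.19 kb, fold 3.31), KMT2C (DNAJC12KO, 5.48 kb, fold 4.05), SMARCD1 (WT, 4.53 kb, fold 3.70), ARID3B (DNAJC12KO, 5.56 kb, fold 3.31) and HDAC10 (DNAJC12KO, 4.68 kb, fold 3.76).

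A further list of 121 chromatin genes outside the symbol rule, chosen by role, gave 9 genes with a peak in the WT list, 7.44% (interval 3.46 to 13.7%) beside 6.49%, and 16 in the DNAJC12KO list, 13.2% (interval 7.75 to 20.6%) beside 8.26%. Genes in both lists included DOT1L, the methyltransferase of lysine 79 of histone H3, the arginine methyltransferase gene PRMT7, and the corepressor genes SIN3B and GATAD2A. A WT and a DNAJC12KO peak overlapped at DOT1L and SIN3B. DOT1L had 3 WT peaks (highest fold 4.08) and 2 DNAJC12KO peaks (highest fold 3.75). In either list 20 of the 121 genes had a peak, beside 11.8% of all protein-coding genes. By role, corepressors had 5 of 15, methyltransferases and partners 4 of 18, and arginine methyltransferases 3 of 8. Polycomb genes had 3 of 19, remodellers 3 of 23, demethylases and JmjC proteins 1 of 8, and bromodomain proteins 1 of 17. DNA methylation genes had 0 of 6. Acetyltransferases outside the KAT group, EP300 and CREBBP among them, had 0 of 7. These groups are small and were not tested.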

How the data were processed

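Per the submitters' processing notes, peaks were called with MACS2 2.2.6 on hg38. The sources used here do not state the aligner, filters, calling options, control library or any spike-in scaling. The authors deposited 1 broad peak list per genotype, with a score (not used), a fold enrichment ratio, and -log10 p (not used) and -log10 q values. Each list was assigned to its genotype by the sample description that names it. That description is the same for the immunoprecipitated library and its input, so the list was taken as that of the immunoprecipitated library. Input libraries were not analysed here.

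Genes were the 58961 RefSeq records (GRCh38.p14) on chromosomes 1 to 22, X and Y; 831 others were left out, as were 6 WT and 12 DNAJC12KO peaks on other sequences. Coordinates are 1-based. Transcription starts came from RefSeq windows of 250 bases before to 50 after a start. Overlaps were counted in Python 3.11.15 with numpy 2.4.6 and pandas 2.3.3, tested on simulated peaks, and intervals (Clopper-Pearson) came from scipy 1.17.1. Every member with a peak is named, and those in both lists, with at least 2 peaks, or among the 5 highest by -log10 q or fold are given in full. The members and lists were chosen with earlier results of these data known. Values of some genes outside the members are not reported here.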

Additional observations from a re-analysis of the deposited data

How the results depend on the processing

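No paired analysis was possible because each genotype has 1 immunoprecipitated library. Of 52 values recomputed under 10 alternatives, 36 stayed within 1.5 times the reported value and 16 did not. At a -log10 q of at least 2, members with a peak fell to 3 (WT), 3 (DNAJC12KO) and 0 (both), with 3 peaks per list and 0 overlapping. Those are 2.33, 2.33 and 0% of members, beside 0.941, 1.09 and 0.101% of all genes. At a fold of at least 4 the members were 5, 6 and 1, with 5 and 6 peaks and 0 overlapping. Those are 3.88, 4.65 and 0.775% of members, beside 2.39, 1.95 and 0.463%. With lists of equal length, DNAJC12KO peaks at members numbered 22 and overlapping WT peaks 1. That overlap was also 1 when at least 50% of the peak had to overlap and 1 without chromosomes 7 and 17. The gene record without a window, a 10 kb window and, added after seeing the data, leaving out PRDM16 moved no count beyond 1.5 times. Leaving out SIRT7 or HDAC9, also added after seeing the data, gave flank densities of 2.03 or 2.47 (WT) and 2.76 or 3.18 (DNAJC12KO) per Mb.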
